A study of Homo sapiens with 4 samples.

Results

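HAS2, a hyaluronan synthase, was followed together with 9 other genes that make, bind or break down hyaluronan, in 293FT cells with mutant or wild-type NIPBL. HAS2 was chosen by its measured log2 fold change, one of the largest in the NIPBLmut libraries. The others were taken by name: HAS1 and HAS3, the antisense gene HAS2-AS1, the precursor enzyme UGDH, the receptor CD44, the hyaluronidases HYAL1, HYAL2 and HYAL3, and CEMIP. All 10 were found among the 58174 genes of the deposited tables by their identifiers in GENCODE release 29.

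Hyaluronan is a long unsulfated sugar chain of the extracellular matrix, built from alternating glucuronate and N-acetylglucosamine. Synthases in the plasma membrane join the corresponding UDP-sugars and push the chain out of the cell, where it binds water, matrix proteins and receptors such as CD44. Hyaluronidases and CEMIP-type proteins cut it, and its turnover is fast. In the mouse embryo Has2 is needed for the heart cushions, the tissue from which the valves form.

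The study compared 2 libraries labelled NIPBLmut with 2 labelled NIPBLwt. All 4 came from 293FT, a transformed human embryonic kidney line that carries the SV40 large T antigen, grown in the same medium. NIPBL loads cohesin, the ring complex that folds chromosomes into loops, and the series concerns Cornelia de Lange syndrome and CHOPS syndrome. The labels give neither the kind of mutation nor the number of clones or cultures, so p-values measure only how much these libraries vary, which may be technical. Ribosomal RNA was removed from total RNA, and the library kit marked strand.

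The expected counts summed to between 31545743 and 33161120 per library. Levels below are CPM, counts relative to a library total adjusted with trimmed means of M values (TMM), unless given as TPM, which also corrects for transcript length. At this depth 1 count was worth 0.0287 to 0.0335 CPM. NIPBL itself was at 61.0 and 62.0 CPM in NIPBLmut and at 41.8 and 44.4 CPM in NIPBLwt libraries, which does not check the labels while the mutation is unknown. Across 18984 tested genes, 704 rose and 399 fell in NIPBLmut by edgeR's quasi-likelihood test at an adjusted p under 0.05, or 5.81% of all. With libraries scaled by total counts 1112 rose and 274 fell, and the median log2 fold change of all genes moved to 0.17. The mean chi-square per gene between replicates was 3.71 for the NIPBLmut pair and 42.1 for the NIPBLwt pair, so the mutant libraries were much more alike. Of the 12 markers of the 293 line 11 were tested, of which KRT8 rose while NEFM, LIN28B and VIM fell. NEFM kept its call in all 12 alternatives, whereas KRT8 lost its call without either NIPBLmut replicate and LIN28B without replicate 2 of NIPBLmut. VIM lost its call in 5, without either NIPBLmut replicate, with total counts (edgeR adjusted p = 0.0554), with the replicate block (0.0547) and on log2(TPM + 1) (limma adjusted p = 0.0839).

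HAS2 (ENSG00000170961) lies on chromosome 8 at 121612116 to 121641390 (GRCh38, minus strand) and has 1 annotated transcript of 4190 bases in 4 exons. It had 61.8 and 54.7 CPM in NIPBLmut libraries, against 3.0 and 1.31 CPM in NIPBLwt libraries. Every mutant library was thus far above every wild-type library, although the wild-type pair also differed between themselves. These levels rest on 2087.96 and 1904 expected counts in NIPBLmut and 93 and 39 in NIPBLwt. The group means were 58.2 ± 5.0 and 2.15 ± 1.2 CPM (SD, n = 2 each), a ratio of 27.1 and a fitted log2 fold change of 4.75 (SE 0.36). Since HAS2 was chosen for this change, the values describe it and are not tested here.

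On the TPM scale HAS2 was at 13.02 and 11.55 in NIPBLmut and at 0.56 and 0.24 in NIPBLwt libraries. It exceeded 69.6% and 67.2% of the 19762 protein-coding genes in the mutant libraries, and 36.0% and 33.2% of them in the wild-type libraries. The transcript thus stood in the upper part of the protein-coding genes in NIPBLmut and in the lower part in NIPBLwt. HAS2 ranked 46 by log2 fold change among all 14456 tested protein-coding genes, and 8 among those that were called, averaged 5 CPM or more and did not overlap between groups. In the second ranking KCNS3 was the last of the first 12 with 3.58, and LIX1 came next with 3.57.

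**Figure D1:**
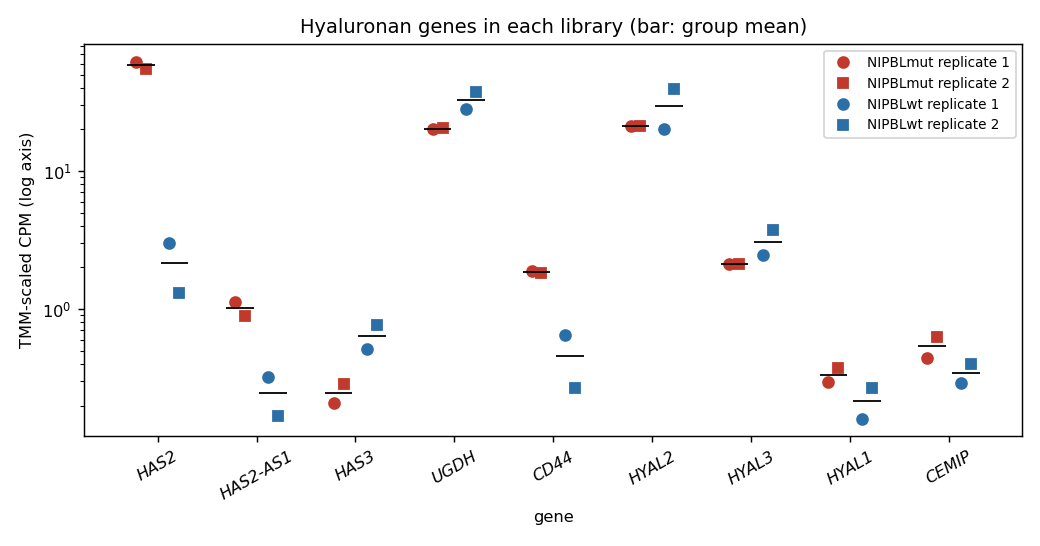
TMM-scaled CPM on a log axis for the 9 tested hyaluronan genes in each library, NIPBLmut in red and NIPBLwt in blue, with circles for replicate 1, squares for replicate 2 and bars for group means. HAS2 stood at 54.7 to 61.8 CPM in NIPBLmut and 1.31 to 3.0 CPM in NIPBLwt, while HYAL2 overlapped between the groups.

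The other synthases were barely present. HAS3 (ENSG00000103044, chromosome 16, 69105564 to 69118719, plus strand) makes the same polymer from a separate gene. It had 0.207 and 0.287 CPM in NIPBLmut and 0.516 and 0.77 CPM in NIPBLwt libraries, from 7 and 10 counts in NIPBLmut and 16 and 23 in NIPBLwt. Both mutant values lay below both wild-type values, with a log2 fold change of -1.36 (SE 0.45), but HAS3 was not called (edgeR adjusted p = 0.122). With offsets for effective length it had -2.28 (edgeR adjusted p = 0.0473). Its abundance-weighted transcript length was 1881 and 3452 bases in NIPBLmut and 1225 and 1563 bases in NIPBLwt libraries. HAS1 (ENSG00000105509, chromosome 19, 51713112 to 51723994, minus strand) had 1 count in NIPBLmut replicate 1 and none in the other libraries. It was not tested, and at this depth a count of 0 allows up to 0.0862 CPM in NIPBLmut and 0.0967 to 0.1 CPM in NIPBLwt libraries, counting error only.

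The 3 synthases summed to 13.13 and 11.62 TPM in NIPBLmut and to 0.91 and 0.62 TPM in NIPBLwt libraries. HAS2 made up 99.2% and 99.4% of that sum in NIPBLmut, and 61.5% and 38.7% in NIPBLwt, where HAS3 made up the rest. By TPM, HAS2 was thus the main synthase transcript in both mutant libraries and in NIPBLwt replicate 1, and HAS3 in NIPBLwt replicate 2. By counts HAS2 was above HAS3 in NIPBLwt replicate 2 as well, with 39 against 23, so the order there depends on the length correction. The wild-type shares rest on few reads, and all the shares follow from the HAS2 levels by which the gene was chosen.

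**Figure D2:**
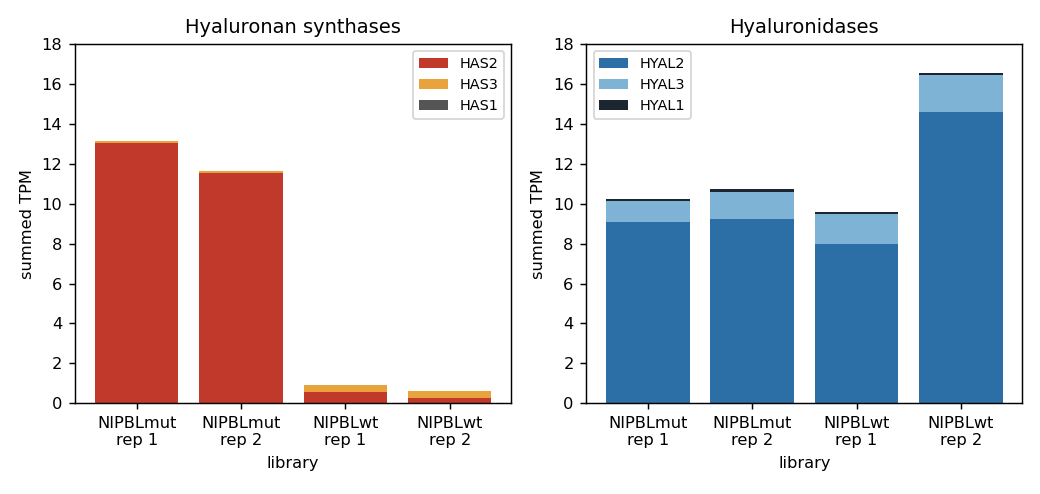
Summed TPM of the synthases HAS1, HAS2 and HAS3 (left) and of the hyaluronidases HYAL1, HYAL2 and HYAL3 (right) in each of the 4 libraries, as stacked bars on the same scale from 0. Synthase transcripts summed to 11.62 to 13.13 TPM in NIPBLmut and 0.62 to 0.91 TPM in NIPBLwt, while the hyaluronidase sums of 10.25 and 10.73 TPM in NIPBLmut lay between the 9.59 and 16.55 TPM in NIPBLwt.

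HAS2-AS1 (ENSG00000248690, chromosome 8, 121639293 to 121993876, plus strand) is a noncoding gene that starts inside HAS2 and runs the other way. It had 1.12 and 0.89 CPM in NIPBLmut and 0.322 and 0.167 CPM in NIPBLwt libraries, from 38 and 31 counts in NIPBLmut and 10 and 5 in NIPBLwt. Both mutant libraries were above both wild-type libraries. The log2 fold change of 2.02 (SE 0.45) was not called (edgeR adjusted p = 0.0615). It was called in 4 alternatives that kept all libraries, among them no filter and the replicate block, with edgeR adjusted p = 0.0438 and 0.0235. DESeq2 did not call it (adjusted p = 0.0941).

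The antisense transcript had a smaller ratio to HAS2 in the mutant libraries. Its counts were 1.82% and 1.63% of those of HAS2 in NIPBLmut, and 10.8% and 12.8% in NIPBLwt. The 4 HAS2-AS1 transcripts that the deposited tables list share 201 exonic bases with HAS2, at the HAS2 transcript's start (121641190 to 121641390). That is 4.8% of the exonic bases of HAS2 and 11.2% of those of HAS2-AS1. The libraries marked strand, but whether the counting used it is not given in the sources used here. How far reads of one gene entered the other's count was not tested.

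UGDH (ENSG00000109814, chromosome 4, 39498755 to 39528311, minus strand) oxidises UDP-glucose to the UDP-glucuronate that all synthases use. It had 20.1 and 20.5 CPM in NIPBLmut and 28.0 and 37.6 CPM in NIPBLwt libraries, so the mutant libraries were lower than both wild-type ones. The log2 fold change of -0.69 (SE 0.17) was not called (edgeR adjusted p = 0.0731), nor with effective length offsets at -0.59 (edgeR adjusted p = 0.117). It was called at -0.70 by DESeq2 (adjusted p = 0.0182). Per length, HAS2 was at 1.2 and 1.06 times the UGDH level in NIPBLmut libraries, against 0.0462 and 0.0145 times in NIPBLwt libraries, a description that rests mostly on the HAS2 levels used to choose it.

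CD44 (ENSG00000026508, chromosome 11, 35138870 to 35232402, plus strand), the main cell surface receptor of hyaluronan, was low throughout. It had 1.89 and 1.81 CPM in NIPBLmut and 0.645 and 0.268 CPM in NIPBLwt libraries, from 64 and 63 counts in NIPBLmut and 20 and 8 in NIPBLwt. The groups did not overlap, and the ratio of their means was 4.06. The log2 fold change of 2.01 (SE 0.45) was not called (edgeR adjusted p = 0.0621), but was with DESeq2 (adjusted p = 0.0237) and in 3 other alternatives that kept all libraries. The deposited abundance-weighted transcript length of CD44 was 1380 and 1448 bases in NIPBLmut and 1303 and 1006 bases in NIPBLwt libraries, among 39 annotated transcripts of 352 to 5732 bases. So few reads do not tell its splice forms apart.

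Among the enzymes that cut hyaluronan, HYAL2, a hyaluronidase anchored at the cell surface, was the most abundant. HYAL2 (ENSG00000068001, chromosome 3, 50317790 to 50322906, minus strand) had 21.1 and 21.3 CPM in NIPBLmut and 20.1 and 39.4 CPM in NIPBLwt libraries. The mutant libraries lay within the wild-type range, and its log2 fold change of -0.49 (SE 0.31, edgeR adjusted p = 0.348) was 0.08 without NIPBLwt replicate 2. It made up 88.6% and 86.0% of the TPM of the 3 hyaluronidases in NIPBLmut libraries, and 83.1% and 88.2% in NIPBLwt libraries. The TPM of HAS2 was 1.43 and 1.25 times that of HYAL2 in NIPBLmut libraries, against 0.0703 and 0.0164 times in NIPBLwt libraries. Since HYAL2 overlapped between the groups, this ratio restates the levels by which HAS2 was chosen and adds no separate result.

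HYAL3 (ENSG00000186792, chromosome 3, 50292831 to 50299468, minus strand) is a family member nearby, with HYAL1 between it and HYAL2. It had 2.13 CPM in both NIPBLmut libraries, against 2.45 and 3.71 CPM in NIPBLwt libraries (log2 fold change -0.53, SE 0.30, edgeR adjusted p = 0.288). HYAL1 (ENSG00000114378, chromosome 3, 50299889 to 50312381, minus strand), the lysosomal hyaluronidase, had 0.296 and 0.373 CPM in NIPBLmut and 0.161 and 0.268 CPM in NIPBLwt libraries (0.64, SE 0.50, edgeR adjusted p = 0.435). Neither was called, and HYAL1 rests on at most 13 counts per library. HYAL2 shares 2880 bases of its span with TUSC2, and HYAL3 shares 3020 with NAA80, on the same strand. How RSEM divided reads there was not checked.

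CEMIP (ENSG00000103888, chromosome 15, 80779343 to 80951776, plus strand), needed for hyaluronan depolymerisation in skin fibroblasts, had 0.444 and 0.632 CPM in NIPBLmut and 0.29 and 0.402 CPM in NIPBLwt libraries. The groups did not overlap, but the counts were 15 and 22 in NIPBLmut and 9 and 12 in NIPBLwt, and the gene was not called (0.64, SE 0.44, edgeR adjusted p = 0.375).

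HAS2 was the 1 member of the 9 tested that edgeR called, and it was chosen for its rise. None of the other 8 was called by edgeR, while 5.81% of all tested genes were. DESeq2 called 1 higher (CD44) and 1 lower (UGDH), beside 1294 higher and 1206 lower of the 18984 tested genes. The DESeq2 counts given for lists below stand beside the same totals. Of the 8, 4 had an unadjusted p under 0.05, as did 29.8% of all tested genes. The groups did not overlap at 8 of the 9 tested members, nor at 63.2% of all tested genes. Of these, 5 members were higher and 3 lower in NIPBLmut, beside 32.3% and 30.8% of all tested genes. The 2 counts of members that did not overlap and that were higher include HAS2, whose place there follows from how it was chosen. The median log2 fold change of the other 8 was 0.08, beside -0.006 over all tested genes. A low gene can pass the filter through its mutant level alone, so these counts cover only what passed.

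The wild-type replicates differed in a way that bears on these values. HAS2, HAS2-AS1 and CD44 were lower in NIPBLwt replicate 2 than in replicate 1, by log2 ratios of -1.2, -0.95 and -1.27. The other 6 tested members were higher in replicate 2, from 0.43 for UGDH to 0.97 for HYAL2. Without NIPBLwt replicate 1 the log2 fold change was 5.48 for HAS2, 2.56 for HAS2-AS1 and 2.77 for CD44. Without NIPBLwt replicate 2 it was 4.28, 1.63 and 1.52 in the same order. Over all 12 alternatives HAS2 had between 3.25 and 5.48, the lowest on log2(TPM + 1).

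The promoters of HAS3, CD44 and UGDH are shown because these are the synthase, receptor and precursor genes beside HAS2. The windows are from RefSeq (GRCh38.p14), cover 250 bases before to 50 after the annotated start, and run 5′ to 3′ on the gene's strand. Capitals mark GC boxes, searched as GGGCGG on both strands. The windows are chr16:69107290-69107589 (plus) for HAS3, chr11:35138921-35139220 (plus) for CD44 and chr4:39527390-39527689 (minus) for UGDH.
HAS3: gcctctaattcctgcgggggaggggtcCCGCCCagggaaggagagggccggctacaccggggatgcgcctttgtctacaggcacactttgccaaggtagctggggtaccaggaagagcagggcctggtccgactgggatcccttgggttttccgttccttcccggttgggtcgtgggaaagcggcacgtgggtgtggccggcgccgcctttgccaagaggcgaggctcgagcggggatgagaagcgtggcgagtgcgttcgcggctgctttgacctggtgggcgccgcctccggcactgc
CD44: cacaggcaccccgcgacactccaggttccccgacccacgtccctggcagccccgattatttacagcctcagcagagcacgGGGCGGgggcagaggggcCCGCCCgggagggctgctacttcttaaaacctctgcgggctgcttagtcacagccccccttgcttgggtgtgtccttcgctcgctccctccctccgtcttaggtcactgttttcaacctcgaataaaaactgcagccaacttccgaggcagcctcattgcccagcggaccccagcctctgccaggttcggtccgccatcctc
UGDH: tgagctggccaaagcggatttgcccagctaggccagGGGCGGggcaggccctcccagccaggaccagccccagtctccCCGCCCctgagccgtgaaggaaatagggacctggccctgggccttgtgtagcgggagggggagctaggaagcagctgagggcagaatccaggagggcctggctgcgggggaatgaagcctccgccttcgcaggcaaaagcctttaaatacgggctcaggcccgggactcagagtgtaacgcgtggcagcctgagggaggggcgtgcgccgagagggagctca
HAS3 had 1 GC box and CD44 and UGDH had 2 each, and 45.0% of the 35116 promoters in the table hold at least 1. None of the 3 holds TATAAA on either strand, which 11.5% of all promoters do. HAS3 and CD44, whose fitted changes had opposite signs, thus shared this feature, which is common.

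The supply of UDP-sugars beyond UGDH showed no gene called by edgeR, beside 5.81% of all tested genes. All 18 genes for making, recycling or using UDP-glucose and UDP-N-acetylglucosamine were tested, with a median log2 fold change of -0.02. DESeq2 called 1 higher and 1 lower, and 5 of the 18 reached an unadjusted p under 0.05, beside 29.8% of all tested genes. GFPT1, the entry enzyme of the hexosamine pathway, had 127 and 151 CPM in NIPBLmut and 109 and 103 CPM in NIPBLwt libraries (0.39, SE 0.13, edgeR adjusted p = 0.126). The smallest p-values were those of AMDHD2, which deacetylates N-acetylglucosamine 6-phosphate (-0.56, SE 0.13, edgeR adjusted p = 0.065), the N-acetylglucosamine kinase NAGK (0.41), RENBP, an N-acylglucosamine epimerase (1.80), and UXS1, which uses up UDP-glucuronate (-0.41). The summed TPM of the list was 544.46 and 546.18 in NIPBLmut and 515.07 and 495.18 in NIPBLwt libraries. On log2(TPM + 1) the median log2 fold change of all tested genes was itself 0.12, so these sums alone do not show a rise of the list. GFPT1 was named after its values were seen.

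Nor did edgeR call any of the 12 polymerase genes for heparan and chondroitin sulfate, chains that also draw on UDP-glucuronate. Over all tested genes 5.81% were called, so none in a list this short says little about it. The list's median was 0.04, with 5 at an unadjusted p under 0.05, beside 29.8% of all tested genes. DESeq2 called 1 higher and 1 lower. The chondroitin synthase CHSY3 had 5.0 and 5.06 CPM in NIPBLmut and 2.51 and 1.47 CPM in NIPBLwt libraries (log2 fold change 1.33, SE 0.31, edgeR adjusted p = 0.0664). CSGALNACT2 had 0.45, EXTL3 had -0.54 and CHPF2 had -0.45. All 12 values lay between -0.54 and 1.33. They were below the 4.75 of HAS2, which was chosen for its large change, so the gap adds no separate result and was not tested.

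Of the other hyaluronan receptors 4 of 8 passed the filter, and 2 of these rose, or 50%, beside 3.71% of all tested genes higher and 5.81% called either way. The list is short, and 3 of the 4 had an unadjusted p under 0.05, beside 29.8% of all tested genes. DESeq2 called 2 higher. STAB1, a scavenger receptor that clears hyaluronan, had 1.77 and 1.35 CPM in NIPBLmut and 0.258 and 0.268 CPM in NIPBLwt libraries (log2 fold change 2.55, SE 0.38, edgeR adjusted p = 0.0335). ICAM1, an adhesion molecule reported to bind hyaluronan, had 1.15 and 1.01 CPM in NIPBLmut and 0.193 and 0.201 CPM in NIPBLwt libraries (2.43, SE 0.39, edgeR adjusted p = 0.037). Both stayed below 2 CPM. With wild-type levels this low, both can have passed the filter through their mutant levels alone, so the share of 50% describes only what passed. STAB1 was not called without NIPBLmut replicate 1 (edgeR adjusted p = 0.0988) or with effective length offsets (0.0575), and ICAM1 not without NIPBLmut replicate 1 (0.136) or replicate 2 (0.0944). HMMR, which binds hyaluronan and spindle microtubules, was the most abundant, at 141 and 126 CPM in NIPBLmut and 159 and 141 CPM in NIPBLwt libraries, and was not called (-0.17). The lymphatic receptor LYVE1 had a single level above 0, 0.0575 CPM in NIPBLmut replicate 2.

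Proteins that bind or cross-link hyaluronan had 10 of 18 members tested and 1 called, the cartilage proteoglycan ACAN, or 10.0%, beside 5.81% of all tested genes. DESeq2 called 3 higher and 1 lower, and 6 of the 10 had an unadjusted p under 0.05, beside 29.8% of all tested genes. Some of these genes, ACAN among them, were low enough in NIPBLwt to have passed the filter through their mutant levels alone. The shares of this list thus describe only what passed. ACAN had 1.98 and 1.61 CPM in NIPBLmut and 0.483 and 0.268 CPM in NIPBLwt libraries (log2 fold change 2.24, SE 0.40, edgeR adjusted p = 0.0437). It was not called with effective length offsets (1.03, edgeR adjusted p = 0.317), on log2(TPM + 1) (0.20), or without NIPBLmut replicate 1 (edgeR adjusted p = 0.134) or replicate 2 (0.0651). VCAN, the large proteoglycan that forms hyaluronan aggregates in embryonic tissue, was the most abundant of them. It had 74.8 and 68.3 CPM in NIPBLmut and 129 and 90.9 CPM in NIPBLwt libraries (-0.62, SE 0.19, edgeR adjusted p = 0.108). PTX3, a hyaluronan matrix organiser, had 1.42 and the binding protein HABP4 had -0.11. TNFAIP6, which transfers heavy chains onto hyaluronan, had no counts in any library, nor did ITIH2 or AMBP.

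Other breakdown enzymes had 4 of 6 tested and none called by edgeR, beside 5.81% of all tested genes. Of the 4, 1 had an unadjusted p under 0.05, beside 29.8% of all tested genes, and DESeq2 called 1 lower. CEMIP2, a transmembrane relative of CEMIP, had 18.1 and 16.9 CPM in NIPBLmut and 23.3 and 30.7 CPM in NIPBLwt libraries (log2 fold change -0.63, SE 0.17, edgeR adjusted p = 0.0858). Lysosomal exoglycosidases that finish the digestion included GUSB with -0.14 and HEXA with -0.04, neither called. Over these 5 lists together 48 of 62 genes were tested, 3 rose and none fell, or 6.25%, beside 5.81% of all tested genes. Of the 48, 20 had an unadjusted p under 0.05, beside 29.8% of all tested genes, and the median was 0.10. The 3 that rose were all under 2 CPM and can have passed the filter through their mutant levels alone. The same holds for some others of the 20, so these shares describe only what passed.

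**Figure D3:**
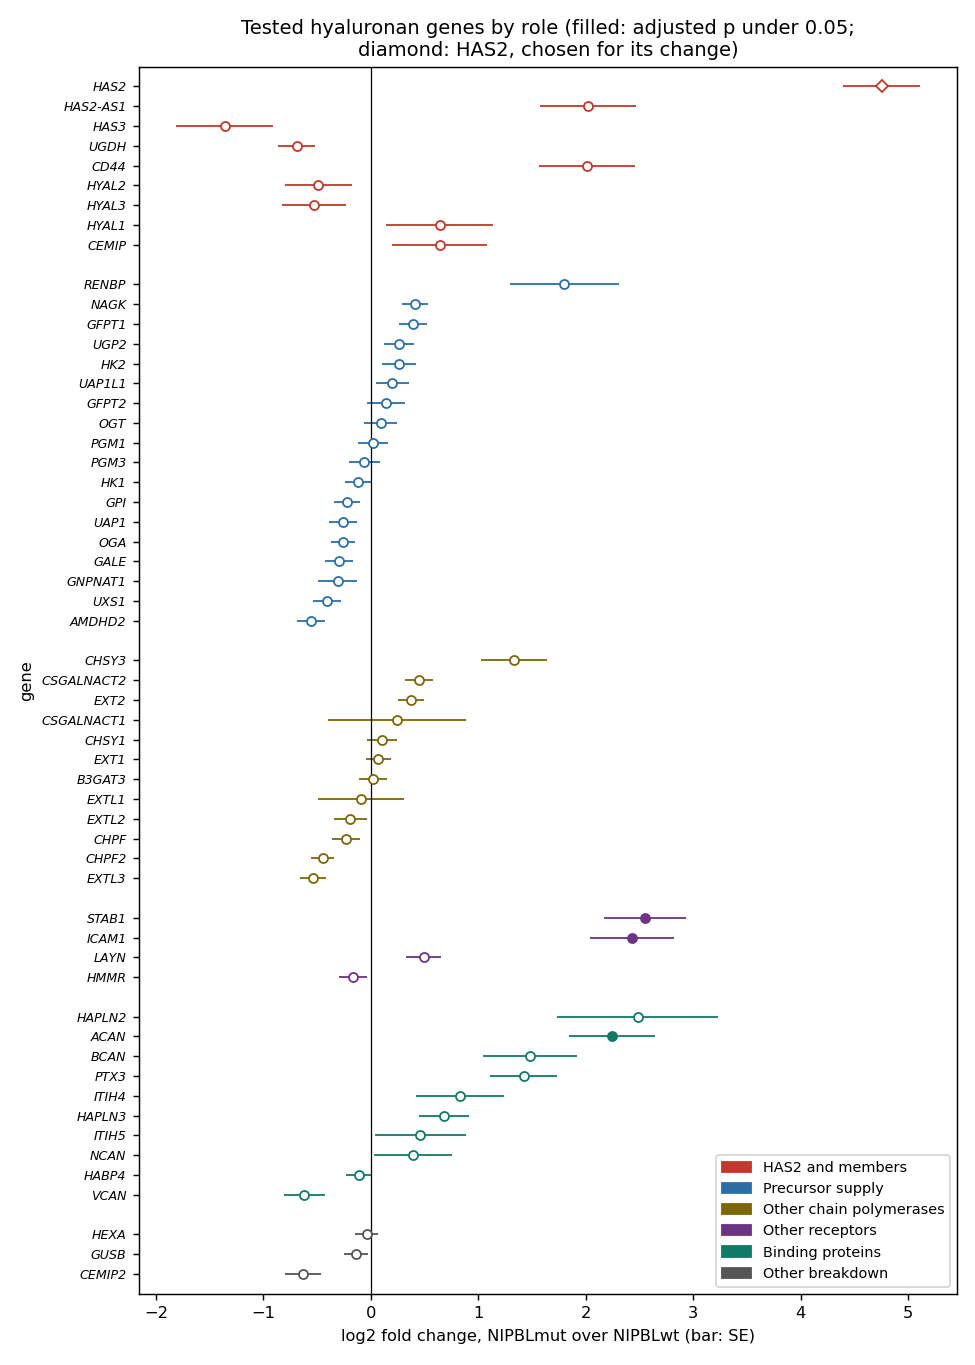
Log2 fold change, NIPBLmut over NIPBLwt, with SE as bars, for tested hyaluronan genes by role; filled circles had an adjusted p under 0.05, open ones did not, and the diamond is HAS2, chosen for its change. HAS2 stood at 4.75, the called STAB1, ICAM1 and ACAN at 2.24 to 2.55, and the precursor genes other than RENBP between -0.56 and 0.41.

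Factors and receptors reported to drive HAS2 moved both ways. Of 16 listed genes all were tested, 1 rose and 1 fell, or 12.5%, beside 5.81% of all tested genes, and the median was 0.00. DESeq2 called 1 higher and 2 lower, and 9 of the 16 had an unadjusted p under 0.05, beside 29.8% of all tested genes. PDGFRB, a receptor for platelet-derived growth factor, which induces HAS2 in several cell types, had 4.32 and 4.19 CPM in NIPBLmut and 0.87 and 0.335 CPM in NIPBLwt libraries (log2 fold change 2.81, SE 0.44, edgeR adjusted p = 0.037). It stayed called in all 12 alternatives. CREB1, a factor with reported sites at the HAS2 promoter, fell to 43.5 and 44.9 CPM in NIPBLmut, against 64.9 and 71.4 CPM in NIPBLwt libraries (-0.62, SE 0.12, edgeR adjusted p = 0.0446). CREB1 was not called without NIPBLmut replicate 1 (edgeR adjusted p = 0.381) or replicate 2 (0.362), with total counts (0.0551), effective length offsets (0.0869) or on log2(TPM + 1) (0.194). SP3 had -0.55 and the oncostatin M receptor OSMR 0.92, neither called. For CD44, none of 10 tested partners, sheddases and splicing factors was called by edgeR, beside 5.81% of all tested genes, nor by DESeq2. An unadjusted p under 0.05 was reached by 3 of the 10, beside 29.8% of all tested genes. Values in this list included ESRP1, which favours CD44's variant exons, at 1.18, ESRP2 at -0.70, the anchor ANK3 at 0.51 and the linker EZR at -0.35.

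HAS2 is also a gene of fibroblasts and mesothelium, so markers of these cells were read beside it. The 14 fibroblast markers summed to 22.24 and 23.48 TPM in NIPBLmut and to 13.61 and 9.96 TPM in NIPBLwt libraries, so both mutant sums were above both wild-type sums. The median log2 fold change of all tested genes on log2(TPM + 1) was itself 0.12. Of the 10 tested, edgeR called 2 higher (LUM and PDGFRB) and 1 lower (COL3A1), or 30%, beside 3.71% higher, 2.1% lower and 5.81% either way over all tested genes. DESeq2 called 6 higher and 1 lower, and 8 of the 10 had an unadjusted p under 0.05, beside 29.8% of all tested genes. Both mutant libraries lay above both wild-type ones at 7 of the 10 and below at 1, beside 32.3% and 30.8% of all tested genes. The median log2 fold change was 0.94, beside -0.006 over all tested genes. COL1A1, a chain of type I collagen, had 6.57 and 7.53 CPM in NIPBLmut and 3.35 and 2.34 CPM in NIPBLwt libraries (log2 fold change 1.31, SE 0.26, edgeR adjusted p = 0.0501). POSTN had 2.84, COL5A2 1.03, COL5A1 0.84 and FBN1 0.57, none called by edgeR. LUM had 1.84 and was not called without NIPBLmut replicate 1 (edgeR adjusted p = 0.0778) or replicate 2 (0.073). COL3A1 had -2.04 and was not called without NIPBLmut replicate 1 (edgeR adjusted p = 0.0998), with total counts (0.0596), the stricter filter (0.0511) or on log2(TPM + 1) (0.0675). Of the 4 markers not tested, COL1A2 and FAP had no counts in any library, THY1 had at most 0.0335 CPM, and DCN was at 0.207 and 0.144 CPM in NIPBLmut and 0.0322 and 0.0335 CPM in NIPBLwt libraries. Most of the tested fibroblast markers were thus higher in the libraries where HAS2 was high, and their part in its level was not tested. POSTN, at 0.532 and 0.46 CPM in NIPBLmut and 0.0322 and 0.1 CPM in NIPBLwt, can have passed the filter through its mutant level alone. PDGFRB is the same gene that rose among the factors and receptors above, so the 2 lists are not separate there. The 8 mesothelial markers summed to 1.78 and 2.18 TPM in NIPBLmut and 1.62 and 1.61 TPM in NIPBLwt libraries. Of the 3 tested none was called by edgeR, beside 5.81% of all tested genes. DESeq2 called 1 and 1 reached an unadjusted p under 0.05, with BNC1 at 1.37, LRRN4 at 0.66 and WT1 at -0.54. Of the blood cell markers, CD3E, MS4A1 and HBB had no counts in any library, and PTPRC was at 0.0296 and 0.0575 CPM in NIPBLmut and at 0 in both NIPBLwt libraries. In bulk RNA fewer cells with a transcript and less of it per cell cannot be told apart.

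HAS2 stands alone over a long stretch of chromosome 8. Its nearest tested protein-coding gene toward lower coordinates, SNTB1, starts 828.1 kb away, and the nearest toward higher coordinates, ZHX2, starts 1140.0 kb away, with no other protein-coding gene between them. SNTB1, which encodes a syntrophin, rose to 33.5 and 32.6 CPM in NIPBLmut, against 13.8 and 7.3 CPM in NIPBLwt libraries (log2 fold change 1.65, SE 0.30, edgeR adjusted p = 0.0435). ZHX2, a zinc finger and homeobox gene, had 6.69 and 6.55 CPM in NIPBLmut and 7.09 and 7.76 CPM in NIPBLwt libraries (-0.17, SE 0.18, edgeR adjusted p = 0.564). The next genes on these sides were MRPL13 (-0.53), MTBP (-0.12), TBC1D31 (-0.27) and DERL1 (-0.06), none called.

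Of the 20 nearest tested protein-coding genes, 10 a side, 3 rose and 1 fell, beside 3.71% and 2.1% of all tested genes. The others that rose were MAL2 (2.74) and NOV (3.04), which start 2476.4 and 2225.1 kb away toward lower coordinates. ATAD2 fell (-0.83), but was not called on log2(TPM + 1) (adjusted p = 0.0587 by limma) or without either NIPBLmut replicate. The median was 0.12 on the lower side, -0.28 on the higher side and -0.20 over all 20, against -0.30 over the 495 other tested protein-coding genes of chromosome 8. SNTB1, MAL2 and NOV stayed called in all 12 alternatives. Both NIPBLmut libraries lay above both NIPBLwt libraries at 5 of the 20 (SNTB1, ENPP2, NOV, MAL2 and ZHX1-C8orf76) and below at 12, beside 32.3% and 30.8% of all tested genes. On the lower side 4 were above and 5 below, with COL14A1 (-1.19), MRPL13, MTBP, DSCC1 and TAF2 between SNTB1 and ENPP2 all below.

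**Figure D4:**
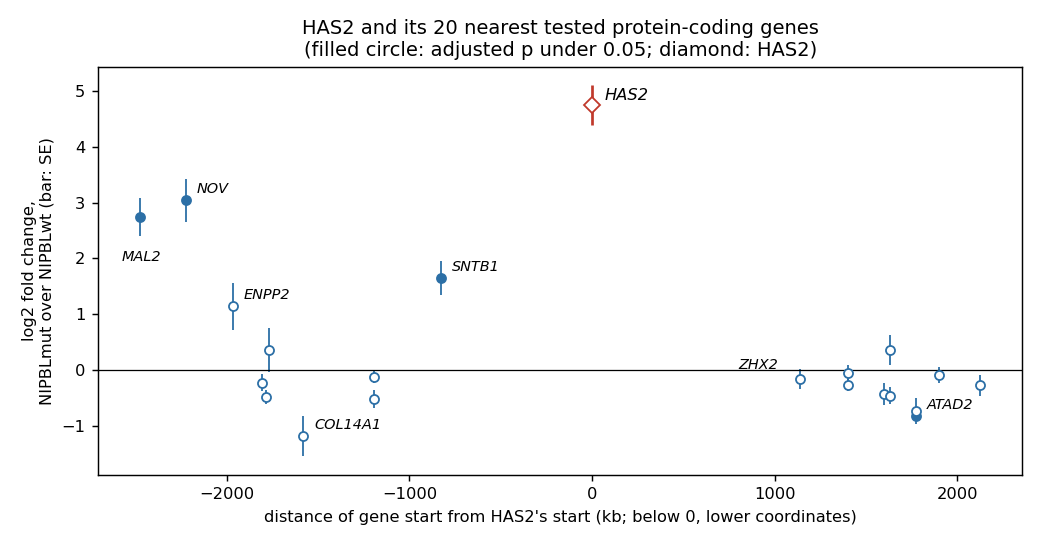
Log2 fold change, NIPBLmut over NIPBLwt, with SE as bars, for HAS2 (diamond) and the 20 nearest tested protein-coding genes against the distance of their start from that of HAS2, in kb; filled circles had an adjusted p under 0.05. The called SNTB1, NOV and MAL2 at 1.65 to 3.04 lie toward lower coordinates, and the 10 genes toward higher coordinates have a median of -0.28.

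The genes whose log2 CPM, centred over the 4 libraries, lay nearest to that of HAS2 by Euclidean distance were PCSK2 (0.26), ASTN1 (0.30), NELL1 (0.39), KRT17 (0.43) and NALCN (0.48). PCSK2 encodes a prohormone convertase, ASTN1 a neuronal adhesion protein, KRT17 a keratin and NALCN a sodium leak channel. They lie on chromosomes 20, 1, 11, 17 and 13, in that order. PCSK2 had 6.51 and 5.43 CPM in NIPBLmut and 0.193 and 0.0669 CPM in NIPBLwt libraries, so it too was lowest in NIPBLwt replicate 2. Over only 4 libraries such likeness describes the level in each genotype and the gap within the wild-type pair.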

How the data were processed

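The submitters' processing notes name the aligner STAR 2.7.3a, the quantifier RSEM 1.3.1 and the build hg38. No annotation release or strand setting is named in them. Per the file headers, the authors deposited for each library expected counts (RSEM's estimated reads per gene), TPM, and the abundance-weighted length and effective length in bases. Of the identifiers, 57836 of 58174 matched GENCODE 29, which gives the coordinates.

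Expected counts were rounded, filtered with filterByExpr, scaled by TMM and tested with edgeR 4.0.16 (R 4.3.3, robust quasi-likelihood, adjusted by Benjamini-Hochberg over 18984 genes, called under 0.05). Other tools were DESeq2 1.42.0 and limma 3.58.1 on log2(TPM + 1); the stricter filter asked for at least 1 CPM in 2 libraries. The fit was tested on simulated data. Replicates in each pair differed beyond sampling noise and were counted separately. A floor of 3 counts covers counting error only.

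The members and gene lists were chosen with earlier results of these data known. Named were the members, up to 4 genes per list by p (at most 2 a direction), the 3 nearest tested genes on each side of HAS2 and the 5 nearest in pattern. Genes named for a count or role outside that rule (VIM, GFPT1, HEXA, DCN, CD3E, MS4A1, HBB, PTPRC, COL1A2, FAP, LYVE1, TNFAIP6, ITIH2, AMBP, MAL2, NOV, ENPP2, COL14A1, DSCC1, TAF2, ZHX1-C8orf76, COL1A1, POSTN, COL5A2, COL5A1, FBN1, THY1, ATAD2) were chosen after their values were seen. Some list genes are not reported here.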

Additional observations from a re-analysis of the deposited data

How the results depend on the processing

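The log2 fold change of HAS2 was 3.25 to 4.91 in the alternatives that kept all libraries and 4.28 to 5.48 with 1 left out, given as a description, since HAS2 was chosen by this value in the same libraries. Of 104 refits of the 9 tested members 82 kept sign and side of the threshold, 21 gained a call and 1 changed sign, HYAL2, at 0.08 without NIPBLwt replicate 2 and -0.89 without replicate 1. Calls among members were 1 higher and 0 lower. They were 2 and 1 with DESeq2 and with effective length offsets, 3 and 1 with no filter and with the replicate block, and 3 and 0 with limma-trend on log2(TPM + 1). Pathway lists had 3 higher and 0 lower, against 7 and 4 with DESeq2, 5 and 1 with no filter, 7 and 1 with the replicate block, and 1 higher with effective length offsets. HAS2's neighbours had 3 higher and 1 lower, with 3 lower by DESeq2, 2 with the replicate block and 0 with limma-trend on log2(TPM + 1). Over all genes 704 were higher and 399 lower, against 1294 and 1206 with DESeq2, 1131 and 786 with no filter, and 1470 and 809 with the replicate block, while total counts gave 1112 higher and limma-trend on log2(TPM + 1) 119 lower. Leaving out 1 library gave 338 to 5964 higher and 62 to 5763 lower over all genes, 1 to 3 and 0 to 4 among members, 0 to 21 and 0 to 14 in the pathway lists, and 3 to 5 and 0 to 11 among neighbours. The high ends came without a NIPBLwt library, where the spread is taken from the close NIPBLmut pair alone and a lone wild-type library is assumed to vary like it. The low ends came without a NIPBLmut library, where the wider NIPBLwt pair sets the spread. For the other settings the cause was not tested.

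The labels give replicate numbers but do not say whether same-numbered libraries were paired. Deviations of same-numbered libraries correlated at -0.059 across genes. This cannot exclude a pairing, because the NIPBLmut pair differed much less than the NIPBLwt pair, and the block is not read as one. Relative to the shift of 0.17 in the median of all genes with total counts, UGDH had -0.68 and CD44 2.0. With 2 libraries a group, genes under about 1 CPM, such as HAS3, HYAL1 and CEMIP, rest on at most 23 counts per library, which limits what this test can call.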
